A study of Homo sapiens with 41 samples.

Results

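The genes described here are the 3 TGF-beta ligands (TGFB1, TGFB2, TGFB3), the type I and type II receptors (TGFBR1, TGFBR2), the co-receptors betaglycan (TGFBR3) and endoglin (ENG), and the signalling SMADs (SMAD2, SMAD3, SMAD4). They were found by matching the Ensembl IDs of the count files to symbols. All 10 matched a single ID, out of 58735 genes in the files, and all 10 passed the filter on low counts in both cell lines. In HMLE, TGFBR3 passed only on the libraries of 1 condition, Twist_OE, with at most 7 counts in any other library. The study asked what ATF4, a regulator that cells make more of under several kinds of stress, does in liver fibrosis. RNA of human cells was sequenced in 16 groups of 2 samples, 8 groups in each of 2 established lines. LX-2 is a line of hepatic stellate cells, and HMLE is a line of immortalised mammary epithelial cells. Cells carried a hairpin against ATF4 (shATF4) or a control hairpin (shCtrl), and the labels name a single hairpin of each kind. LX-2 cells of both hairpins were in TGFbeta, in thapsigargin, in a condition labelled AA_Dep, or in DMSO. HMLE cells of both hairpins were in a condition labelled Twist_OE, in thapsigargin, in AA_Dep, or in DMSO. The labels spell out neither AA_Dep nor Twist_OE and give no dose or duration, and nothing in them says that the samples of a group came from separate cultures, so the spread between them may be technical.

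TGF-beta ligands are secreted in a latent form and, once released, bind the type II receptor TGFBR2, which then phosphorylates the type I receptor TGFBR1. TGFBR1 phosphorylates SMAD2 and SMAD3, which join SMAD4 and enter the nucleus, where they act on genes of the extracellular matrix and on inhibitors of the pathway itself. Betaglycan presents ligand to the receptors, above all TGFB2, and endoglin is an accessory receptor best known from endothelial cells. In the liver the pathway drives stellate cells to become collagen-making myofibroblasts, and in epithelial cells it can drive the epithelial-mesenchymal transition, a change that TWIST1 also sets off. Thapsigargin blocks the pump that fills the calcium store of the endoplasmic reticulum and so causes stress there, which raises ATF4.

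RefSeq promoter windows of 300 bases around the annotated starts (GRCh38.p14) were found for all 10 genes, 24 windows in all. A single window of each ligand is shown, because the ligands open the pathway and because 2 of these 3 windows hold the core letters of the cAMP response element, a sequence that factors of the ATF and CREB family can bind. TGFB1 lies on the minus strand (chr19:41353873-41354172), TGFB2 on the plus strand (chr1:218345086-218345385) and TGFB3 on the minus strand (chr14:75981946-75982245). Each is written 5′ to 3′ on the gene's strand, with the core TGACGT, here read as ACGTCA from the other strand, in capitals.
TGFB1: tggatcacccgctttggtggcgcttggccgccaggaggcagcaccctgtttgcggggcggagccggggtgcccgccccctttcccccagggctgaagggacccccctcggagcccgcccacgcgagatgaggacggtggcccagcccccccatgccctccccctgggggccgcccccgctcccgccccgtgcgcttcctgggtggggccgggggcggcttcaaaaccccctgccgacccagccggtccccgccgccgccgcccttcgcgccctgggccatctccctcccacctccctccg
TGFB2: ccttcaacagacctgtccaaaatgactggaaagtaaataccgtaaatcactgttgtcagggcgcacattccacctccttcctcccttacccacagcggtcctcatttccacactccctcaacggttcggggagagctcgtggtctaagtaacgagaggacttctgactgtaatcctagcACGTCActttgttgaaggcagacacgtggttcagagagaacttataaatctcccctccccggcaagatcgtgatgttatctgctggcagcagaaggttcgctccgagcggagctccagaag
TGFB3: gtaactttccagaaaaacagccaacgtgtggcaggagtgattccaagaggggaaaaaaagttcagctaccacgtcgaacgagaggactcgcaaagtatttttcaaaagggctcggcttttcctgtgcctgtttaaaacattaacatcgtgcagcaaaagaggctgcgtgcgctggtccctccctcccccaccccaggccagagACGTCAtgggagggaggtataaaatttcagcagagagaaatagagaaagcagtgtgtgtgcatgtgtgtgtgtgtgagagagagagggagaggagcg
TGFB3 has a further window, not shown, with 0 matches. The match lies at position -71 from the start in TGFB2 and at position -47 in TGFB3. TGACGT on either strand was in 2 of the 24 windows, those of TGFB2 and TGFB3, against 7.98% of 35116 RefSeq windows of this length. TGATGNAA, the letters of the joint ATF4 and C/EBP motif, was in 0 of the 24 windows on either strand, against 3.62% of all windows, and the SMAD palindrome GTCTAGAC was in 0, against 0.202%. These are letter matches in short windows and say nothing of binding.

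Libraries held 14551191 to 18776430 counts in LX-2 cells and 15956909 to 23243132 in HMLE cells. The files of both HMLE shATF4 AA_Dep samples were identical and were counted as 1 library, which leaves 31 libraries. In tests that single library is assumed to vary like the other groups. LX-2 shCtrl thapsigargin replicate 2 stood apart. Only 15840 genes were detected there, where the remaining libraries of the line detected 22912 to 24255, and log2 CPM correlated at 0.883 with its replicate, where the remaining pairs of the line reached 0.991 or more. The biological coefficient of variation of LX-2 libraries came to 29.5% when it was kept and to 9.21% when it was left out, and HMLE had 5.24%. LX-2 results below come from the 15 other LX-2 libraries, with the adjusted p from all 16 beside them where it ends a call. Among the 15, shCtrl thapsigargin is a single library that is assumed to vary like the others. ATF4 was lower with shATF4 in all 8 pairs of groups, with log2 changes of -0.91 to -2.78. In HMLE Twist_OE cells, TWIST1 had 32.1 and 32.7 normalised CPM with shATF4 and 130 and 145 with shCtrl, against 18.0 and 17.5 in shCtrl DMSO cells. LX-2 had VIM at 917 to 2370 and COL1A1 at 459 to 15386 normalised CPM, with EPCAM, CDH1, KRT5 and TP63 at or under 0.493 CPM, but the stellate markers LRAT and DES were also at or under 0.259 CPM. Of the 8 epithelial markers, 2 averaged at least 5 CPM in LX-2, KRT8 at 225 to 1719 and KRT18 at 105 to 919 CPM. These LX-2 marker ranges include the library left out. The 8 summed to 2640 CPM in that library, against 382 in shCtrl thapsigargin replicate 1. The sum of the 8 in LX-2 was 386 and 370 CPM in shATF4 DMSO cells and 1367 and 1484 in shCtrl TGFbeta cells, against 755 and 887 in shCtrl DMSO cells, and the part of this in the values below was not tested. HMLE had CDH1 at 19.5 to 846 CPM and KRT5 at 245 to 4775 CPM, and all 8 epithelial markers averaged at least 5 CPM there. Of the 10 stellate and mesenchymal markers, 7 averaged at least 5 CPM over all HMLE libraries and 6 over those of LX-2. The HMLE averages lean on Twist_OE. There the 10 summed to 2839 and 2690 CPM with shCtrl and 381 and 446 with shATF4, against 33.2 to 78.8 in the remaining HMLE libraries. HMLE had LRAT at 1.45 to 40.5, DCN at 0 to 79.3 and LUM at 0.0536 to 111 CPM, with medians of 15.6, 0 and 0.594. In LX-2, DCN reached at most 0.932 and LUM 1.03 CPM.

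**Figure D1:**
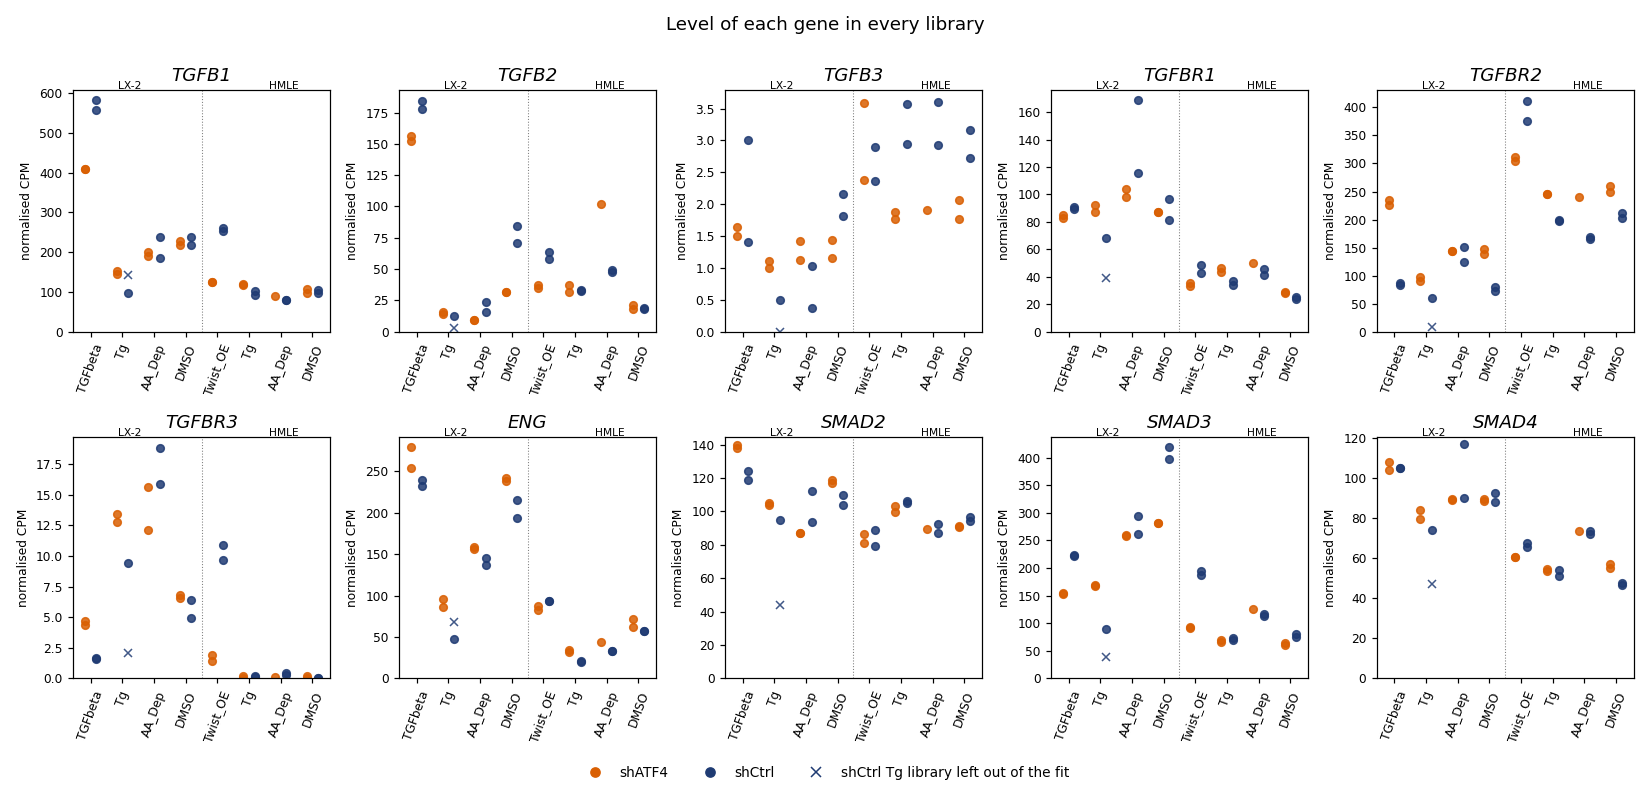
Normalised CPM of each of the 10 genes in every library, with LX-2 conditions left and HMLE conditions right of the dotted line, shATF4 in orange left of shCtrl in blue, and a cross for LX-2 shCtrl thapsigargin replicate 2. Each point is 1 library and each panel has its own scale from 0. TGFB1 is highest in LX-2 TGFbeta cells, at 409 and 409 with shATF4 and 583 and 557 with shCtrl.

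TGFB1, the most widely made TGF-beta ligand, was higher in TGFbeta-treated LX-2 cells and in Twist_OE HMLE cells than in DMSO cells. In LX-2 shCtrl cells its level was 583 and 557 normalised CPM in TGFbeta, 96.4 in thapsigargin (142 in the library left out) and 238 and 184 in AA_Dep, against 219 and 239 in DMSO. The TGFbeta libraries were thus above every other LX-2 library, and those of AA_Dep overlapped with DMSO. TGFB1 rose 2.53-fold in TGFbeta (log2 change 1.34 ± 0.10, SE; edgeR quasi-likelihood test, adjusted p = 4.3e-08, and 0.0073 with all 16 LX-2 libraries). It fell in thapsigargin (log2 change -1.22 ± 0.12, adjusted p = 1.2e-06, and 0.018 with all 16). In these bulk samples fewer cells of a kind and less RNA per cell cannot be told apart.

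With shATF4, TGFB1 stood at 409 and 409 normalised CPM in LX-2 TGFbeta cells against 583 and 557 with shCtrl, so the groups did not overlap (log2 change -0.48 ± 0.09, adjusted p = 0.0017, and 0.46 with all 16). In DMSO, shATF4 cells had 219 and 227 CPM, within the shCtrl range of 219 and 239. The difference between the TGFbeta responses of the hairpins missed the threshold (-0.46 ± 0.13, adjusted p = 0.15). In thapsigargin, TGFB1 had 153 and 144 CPM with shATF4, and was higher than the 96.4 of the shCtrl library in the fit (0.64 ± 0.12, adjusted p = 0.00545, and 0.483 with all 16). That call rests on which shCtrl library is used: with replicate 2, at 142 CPM, in place of replicate 1 the log2 change was -0.05.

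In HMLE, TGFB1 had 125 and 124 normalised CPM in shATF4 Twist_OE cells and 252 and 261 in shCtrl Twist_OE cells, against 104 and 96.5 in shCtrl DMSO cells. It rose 2.57-fold in shCtrl Twist_OE cells over DMSO (1.36 ± 0.06, adjusted p = 2.2e-13) and was lower with shATF4 than with shCtrl in Twist_OE (-1.05 ± 0.06, adjusted p = 1.6e-11). The other HMLE conditions moved it little: 93.0 and 101 CPM in shCtrl thapsigargin cells, where it missed the threshold (-0.06 ± 0.06), and 78.8 and 79.0 in shCtrl AA_Dep cells, where it fell (-0.34 ± 0.06, adjusted p = 8.03e-05). With shATF4 it was slightly higher than with shCtrl in thapsigargin, at 117 and 120 against 93.0 and 101 CPM (0.29 ± 0.06, adjusted p = 0.0013).

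TGFB2, the ligand that depends most on betaglycan, had the widest range of the 10 genes in LX-2, 4.17 log2 units over the 8 group means, and moved in opposite directions in the 2 lines in thapsigargin and in AA_Dep. In LX-2 shCtrl cells it had 184 and 178 normalised CPM in TGFbeta, 12.6 in thapsigargin (3.07 in the library left out) and 15.6 and 23.6 in AA_Dep, against 84.0 and 70.9 in DMSO. It rose in TGFbeta (1.25 ± 0.13, adjusted p = 4.2e-06, and 0.18 with all 16) and fell in thapsigargin to 0.165 of the DMSO level (-2.60 ± 0.20, adjusted p = 5.5e-08, and 0.000615 with all 16). In AA_Dep it fell as well (-1.96 ± 0.14, adjusted p = 2.6e-08, and 0.01 with all 16). HMLE shCtrl cells had 63.7 and 57.7 CPM with Twist_OE. The levels were 33.0 and 32.1 CPM in thapsigargin cells and 47.2 and 48.9 in AA_Dep cells, against 18.2 and 18.7 in DMSO cells. Here every condition lay above DMSO: TGFB2 rose in Twist_OE (1.72 ± 0.09, adjusted p = 3.2e-12), in thapsigargin (0.81 ± 0.09, adjusted p = 9.6e-07) and in AA_Dep (1.39 ± 0.09, adjusted p = 1.7e-10).

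TGFB2 was lower with shATF4 in LX-2 DMSO cells and missed the threshold in HMLE DMSO cells. In LX-2 DMSO it had 31.8 and 31.6 normalised CPM with shATF4 against 84.0 and 70.9 with shCtrl (-1.27 ± 0.14, adjusted p = 2.3e-05, and 0.43 with all 16). In TGFbeta the levels were 156 and 152 with shATF4 against 184 and 178 with shCtrl, a difference that missed the threshold (-0.24 ± 0.13, with 2 SE reaching from -0.50 to 0.03). The DMSO level was lower with shATF4, and the TGFbeta response was larger there than with shCtrl by 1.03 ± 0.19 (adjusted p = 0.014). This difference is fragile: its adjusted p was 1 with all 16 LX-2 libraries and 0.055 to 0.1 when any 1 of the compared libraries but shCtrl DMSO replicate 2 was left out. In LX-2 AA_Dep, TGFB2 had 9.6 and 9.59 CPM with shATF4 against 15.6 and 23.6 with shCtrl (-1.03 ± 0.16, adjusted p = 0.00087, and 0.81 with all 16). HMLE DMSO cells had 21.1 and 18.1 CPM with shATF4 and 18.2 and 18.7 with shCtrl, with overlap (0.09 ± 0.10, adjusted p = 0.658). This difference between the lines was itself past the threshold (-1.39 ± 0.18, adjusted p = 1.16e-05, and 0.39 with all libraries). In HMLE AA_Dep the order was the other way round from LX-2: the single shATF4 library had 102 CPM against 47.2 and 48.9 with shCtrl (1.08 ± 0.10, adjusted p = 1.3e-07), and the AA_Dep response was larger with shATF4 by 0.99 ± 0.14 (adjusted p = 0.00013). Both rest on the assumption that this library varies like the other groups. In HMLE Twist_OE it was lower with shATF4, at 37.0 and 34.6 against 63.7 and 57.7 CPM (-0.77 ± 0.08, adjusted p = 2.3e-07).

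TGFB3, the ligand otherwise known from palate and lung development, was the least counted of the 3, at 0 to 3.61 normalised CPM over the 31 libraries. In LX-2 shCtrl cells it had 1.41 and 3.0 CPM in TGFbeta, 0.498 in thapsigargin and 1.03 and 0.363 in AA_Dep, against 1.81 and 2.16 in DMSO. The TGFbeta libraries thus straddled DMSO, while thapsigargin (-1.96 ± 0.59, adjusted p = 0.015, and 0.021 with all 16) and AA_Dep (-1.46 ± 0.44, adjusted p = 0.012, and 0.18 with all 16) were lower. The thapsigargin value rests on 10 counts in the 1 library of the fit, and the library left out had 0. The AA_Dep call was lost without AA_Dep replicate 2 (adjusted p = 0.11) and without DMSO replicate 2 (adjusted p = 0.061). In HMLE the call was a single one: 1.77 and 1.87 CPM with shATF4 against 2.94 and 3.57 with shCtrl in thapsigargin (-0.84 ± 0.25, adjusted p = 0.0195), lost without any 1 of these 4 libraries but shCtrl replicate 1.

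TGFBR1, the kinase that phosphorylates SMAD2 and SMAD3, was steady in LX-2 TGFbeta cells, at 90.9 and 89.2 normalised CPM with shCtrl, against 96.5 and 81.4 in DMSO (0.04 ± 0.14, with 2 SE reaching from -0.23 to 0.31). It was higher in LX-2 shCtrl AA_Dep cells, at 116 and 169 CPM (0.71 ± 0.14, adjusted p = 0.00045, and 0.069 with all 16). These libraries lay far apart from each other, though both were above DMSO. With shATF4 in AA_Dep it had 104 and 98.4 CPM, lower than with shCtrl (-0.50 ± 0.13, adjusted p = 0.028, and 0.93 with all 16), and the call was lost without either shATF4 library (adjusted p = 0.13 and 0.17) or without the shCtrl library of 169 CPM, replicate 2 (-0.20, adjusted p = 0.24). HMLE shCtrl cells had 48.6 and 42.9 CPM in Twist_OE. They had 37.2 and 33.7 CPM in thapsigargin and 46.0 and 41.2 in AA_Dep, against 25.2 and 24.1 in DMSO. TGFBR1 rose in all 3: by 0.89 ± 0.08 in Twist_OE (adjusted p = 2.3e-08), by 0.52 ± 0.09 in thapsigargin (adjusted p = 7.5e-05) and by 0.82 ± 0.08 in AA_Dep (adjusted p = 8.96e-08). With shATF4 it stood at 46.7 and 43.5 CPM against 37.2 and 33.7 with shCtrl in thapsigargin (0.35 ± 0.08, adjusted p = 0.00365, and 0.063 without shCtrl replicate 2), and at 35.3 and 33.3 against 48.6 and 42.9 in Twist_OE (-0.42 ± 0.08, adjusted p = 0.000231). The hairpin groups did not overlap in either, and their order was opposite.

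TGFBR2, the receptor that binds ligand and starts the signal, was higher with shATF4 in both lines in DMSO. LX-2 DMSO cells had 138 and 147 normalised CPM with shATF4 against 80.0 and 72.8 with shCtrl (0.92 ± 0.10, adjusted p = 1.6e-05, and 1 with all 16). In LX-2 TGFbeta the gap was wider, 234 and 226 with shATF4 against 87.3 and 82.5 with shCtrl (1.44 ± 0.10, adjusted p = 5.1e-08, and 0.37 with all 16), though the difference between the TGFbeta responses missed the threshold (0.52 ± 0.14, adjusted p = 0.101). In LX-2 thapsigargin it had 89.7 and 96.9 CPM with shATF4 against 59.0 with shCtrl (0.68 ± 0.12, adjusted p = 0.0043, and 0.11 with all 16), and 7.44 in the shCtrl library left out. The exception in LX-2 was AA_Dep, where 143 and 144 CPM with shATF4 lay between the shCtrl values of 124 and 151 (0.06 ± 0.10). In shCtrl cells AA_Dep had raised TGFBR2 over DMSO (0.88 ± 0.10, adjusted p = 2.35e-06, and 0.39 with all 16), and that response was smaller with shATF4 by -0.86 ± 0.14 (adjusted p = 0.00103, and 1 with all 16).

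HMLE DMSO cells had TGFBR2 at 249 and 259 normalised CPM with shATF4 against 211 and 203 with shCtrl (0.29 ± 0.05, adjusted p = 0.00042). Thapsigargin cells showed 245 and 246 against 198 and 200 (0.30 ± 0.05, adjusted p = 0.00014), and AA_Dep cells 240 in the single shATF4 library against 166 and 168 (0.53 ± 0.06, adjusted p = 3.5e-06, with the spread of the other groups assumed). In Twist_OE the order turned: 311 and 305 with shATF4 against 411 and 375 with shCtrl (-0.36 ± 0.05, adjusted p = 4.4e-06). Twist_OE itself had raised the gene in shCtrl cells over DMSO (0.93 ± 0.05, adjusted p = 4.2e-12).

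Betaglycan, TGFBR3, was the member that TGFbeta lowered most in LX-2. In shCtrl cells it had 1.69 and 1.55 normalised CPM in TGFbeta, 9.41 in thapsigargin (2.05 in the library left out) and 15.9 and 18.8 in AA_Dep, against 6.42 and 4.9 in DMSO. It fell in TGFbeta (-1.78 ± 0.22, adjusted p = 2.2e-05, and 0.085 with all 16) and rose in AA_Dep (1.64 ± 0.17, adjusted p = 1.15e-06, and 0.035 with all 16), without overlap in either. The rise in thapsigargin (0.75 ± 0.21, adjusted p = 0.0093, and 0.874 with all 16) depends on the shCtrl library: with replicate 2 in place of replicate 1 the change was -1.32, and without DMSO replicate 2 its adjusted p was 0.076. With shATF4, TGFbeta cells had more TGFBR3, 4.7 and 4.38 CPM against 1.69 and 1.55 with shCtrl (1.48 ± 0.23, adjusted p = 0.00025, and 0.22 with all 16). In DMSO the levels were 6.83 and 6.56 with shATF4 against 6.42 and 4.9 with shCtrl (0.26 ± 0.18). The difference between the TGFbeta responses was 1.23 ± 0.30 (adjusted p = 0.066).

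In HMLE, TGFBR3 had at most 7 counts in any library outside Twist_OE. Twist_OE cells had 26 and 43 counts with shATF4 and 203 and 200 counts with shCtrl, against 1 and 1 in shCtrl DMSO cells. Per total count, shCtrl Twist_OE cells had 206 times the level of shCtrl DMSO cells (exact 95% interval of the counts 56.7 to 1707, which covers counting error only). Within Twist_OE the level was lower with shATF4, 1.41 and 1.93 against 10.9 and 9.67 normalised CPM (-2.61 ± 0.28, adjusted p = 2.45e-07). HMLE shCtrl AA_Dep cells had 7 and 4 counts, 7.18 times DMSO per total count (1.57 to 66.6), and the edgeR call there (adjusted p = 0.024) was lost when AA_Dep replicate 1, DMSO replicate 1 or DMSO replicate 2 was left out.

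Endoglin, ENG, fell in thapsigargin in both lines. LX-2 shCtrl cells had 232 and 240 normalised CPM in TGFbeta, 47.1 in thapsigargin (67.9 in the library left out) and 146 and 137 in AA_Dep, against 194 and 215 in DMSO. It fell to 0.234 of the DMSO level in thapsigargin (-2.09 ± 0.11, adjusted p = 1.01e-09, and 0.00036 with all 16) and less in AA_Dep (-0.50 ± 0.08, adjusted p = 0.00012, and 0.14 with all 16). TGFbeta raised it by 0.23 ± 0.08, with an adjusted p of 0.05 that is just under the threshold, 0.88 with all 16 LX-2 libraries, and 0.072 to 0.25 when any 1 of the 4 compared libraries was left out. HMLE shCtrl cells had 93.7 and 94.0 CPM with Twist_OE. The levels were 19.8 and 20.7 CPM in thapsigargin cells and 32.5 and 33.0 in AA_Dep cells, against 57.6 and 57.7 in DMSO cells. ENG fell in thapsigargin (-1.52 ± 0.07, adjusted p = 6.6e-12) and in AA_Dep (-0.81 ± 0.07, adjusted p = 9.2e-09) and rose in Twist_OE (0.71 ± 0.06, adjusted p = 1.7e-08).

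Thapsigargin lowered ENG less where ATF4 was knocked down. Thapsigargin cells of LX-2 had 85.6 and 96.2 normalised CPM with shATF4 against 47.1 with shCtrl (0.97 ± 0.11, adjusted p = 7.5e-05, and 0.099 with all 16), while DMSO cells had 239 and 242 with shATF4 against 194 and 215 with shCtrl (0.26 ± 0.08, adjusted p = 0.054). The thapsigargin response differed between the hairpins by 0.71 ± 0.13 (adjusted p = 0.0043, and 0.57 with all 16), and by 0.06 with shCtrl replicate 2 in place of replicate 1. In HMLE thapsigargin it had 32.3 and 34.1 CPM with shATF4 against 19.8 and 20.7 with shCtrl (0.72 ± 0.08, adjusted p = 1.25e-06), and the response differed by 0.51 ± 0.10 (adjusted p = 0.0048), with 2 libraries in each of the 4 groups. ENG was also higher with shATF4 in HMLE AA_Dep, at 43.8 in the single library against 32.5 and 33.0 CPM (0.42 ± 0.09, adjusted p = 0.0026, with the spread of the other groups assumed), and in HMLE DMSO, at 71.4 and 62.1 against 57.6 and 57.7 (0.21 ± 0.07, adjusted p = 0.0423), where the call was lost without shATF4 replicate 1 (adjusted p = 0.36) or either shCtrl library (0.18 and 0.17). The endothelial markers PECAM1, VWF, CDH5 and KDR, 0 of which averaged 5 CPM in either line, summed to 1.39 to 7.76 CPM in LX-2 and 1.56 to 11.1 CPM in HMLE. In HMLE they moved with Twist_OE, at 10.9 and 11.1 CPM with shATF4 and 5.87 and 5.95 with shCtrl, against 1.56 and 1.78 in shCtrl DMSO cells. In LX-2 they summed to 7.05 and 7.69 CPM in shATF4 thapsigargin cells and 4.63 in the shCtrl thapsigargin library, against 1.52 and 1.39 in shCtrl DMSO cells. Their part in the ENG values was not tested.

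SMAD3, a receptor-activated SMAD that binds DNA directly, was lower than in DMSO in every LX-2 condition in shCtrl cells. LX-2 shCtrl cells had 221 and 223 normalised CPM in TGFbeta, 89.7 in thapsigargin (39.2 in the library left out) and 262 and 295 in AA_Dep, against 419 and 398 in DMSO. All these libraries were below both DMSO libraries: SMAD3 fell by 0.85 ± 0.07 on the log2 scale in TGFbeta (adjusted p = 4.1e-07, and 0.12 with all 16), by 2.16 ± 0.10 in thapsigargin (adjusted p = 2.1e-10, and 0.000103 with all 16) and by 0.52 ± 0.07 in AA_Dep (adjusted p = 2.95e-05, and 0.205 with all 16). With shATF4, DMSO cells had 281 and 281 CPM against 419 and 398 with shCtrl (-0.52 ± 0.07, adjusted p = 0.00028, and 0.798 with all 16), and TGFbeta cells 155 and 153 against 221 and 223 (-0.53 ± 0.07, adjusted p = 0.000118, and 0.485 with all 16). The TGFbeta response of SMAD3 differed between the hairpins by -0.01 ± 0.10, so that 2 SE reach from -0.22 to 0.20. In thapsigargin the order of the hairpins turned, with 169 and 168 CPM with shATF4 against 89.7 with shCtrl (0.93 ± 0.10, adjusted p = 3.2e-05, and 0.0595 with all 16), and the thapsigargin response differed by 1.45 ± 0.12 (adjusted p = 2.7e-06, and 0.078 with all 16).

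In HMLE, SMAD3 had 90.5 and 93.8 normalised CPM in shATF4 Twist_OE cells and 195 and 188 in shCtrl Twist_OE cells, against 79.7 and 75.7 in shCtrl DMSO cells. It rose with Twist_OE in shCtrl cells (1.31 ± 0.05, adjusted p = 1.2e-13) and was lower with shATF4 within Twist_OE (-1.07 ± 0.05, adjusted p = 4.02e-12) and, less so, within DMSO, at 64.2 and 59.6 against 79.7 and 75.7 CPM (-0.33 ± 0.06, adjusted p = 0.00058). In AA_Dep it had 113 and 116 CPM with shCtrl and rose over DMSO (0.57 ± 0.06, adjusted p = 4.3e-08). In thapsigargin it had 72.7 and 70.3 CPM with shCtrl and missed the threshold (-0.13 ± 0.06, adjusted p = 0.084).

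SMAD2, which shares SMAD3's receptor but whose main form binds DNA poorly, and SMAD4, the partner common to the TGF-beta and BMP branches, were the steadiest. Their group means spanned 0.67 and 0.51 log2 units in LX-2 and 0.33 and 0.65 in HMLE. Over the 15 LX-2 libraries in the fit SMAD2 ran from 86.9 to 140 and SMAD4 from 74.1 to 117 normalised CPM, and the library left out had 43.7 and 47.1. In LX-2, SMAD2 had 124 and 119 normalised CPM in shCtrl TGFbeta cells against 110 and 104 in DMSO (0.22 ± 0.09, adjusted p = 0.095), and SMAD4 had 105 and 105 against 92.6 and 88.0 (0.24 ± 0.10, adjusted p = 0.11). In HMLE, SMAD4 rose in Twist_OE, to 65.7 and 67.5 CPM against 47.4 and 46.5 in DMSO with shCtrl (0.51 ± 0.06, adjusted p = 3.1e-07), and in AA_Dep, to 73.3 and 72.2 CPM (0.64 ± 0.06, adjusted p = 1.5e-08). With shATF4 it was slightly higher in HMLE DMSO, at 54.9 and 57.1 against 47.4 and 46.5 CPM (0.25 ± 0.06, adjusted p = 0.00666), a call lost without shATF4 replicate 2 (adjusted p = 0.081) or shCtrl replicate 2 (adjusted p = 0.067). SMAD2 was called in HMLE in Twist_OE, at 89.0 and 79.6 against 96.4 and 94.6 CPM (-0.18 ± 0.06, adjusted p = 0.015), and lost the call without DMSO replicate 1 (adjusted p = 0.083) or Twist_OE replicate 2 (adjusted p = 0.23).

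**Figure D2:**
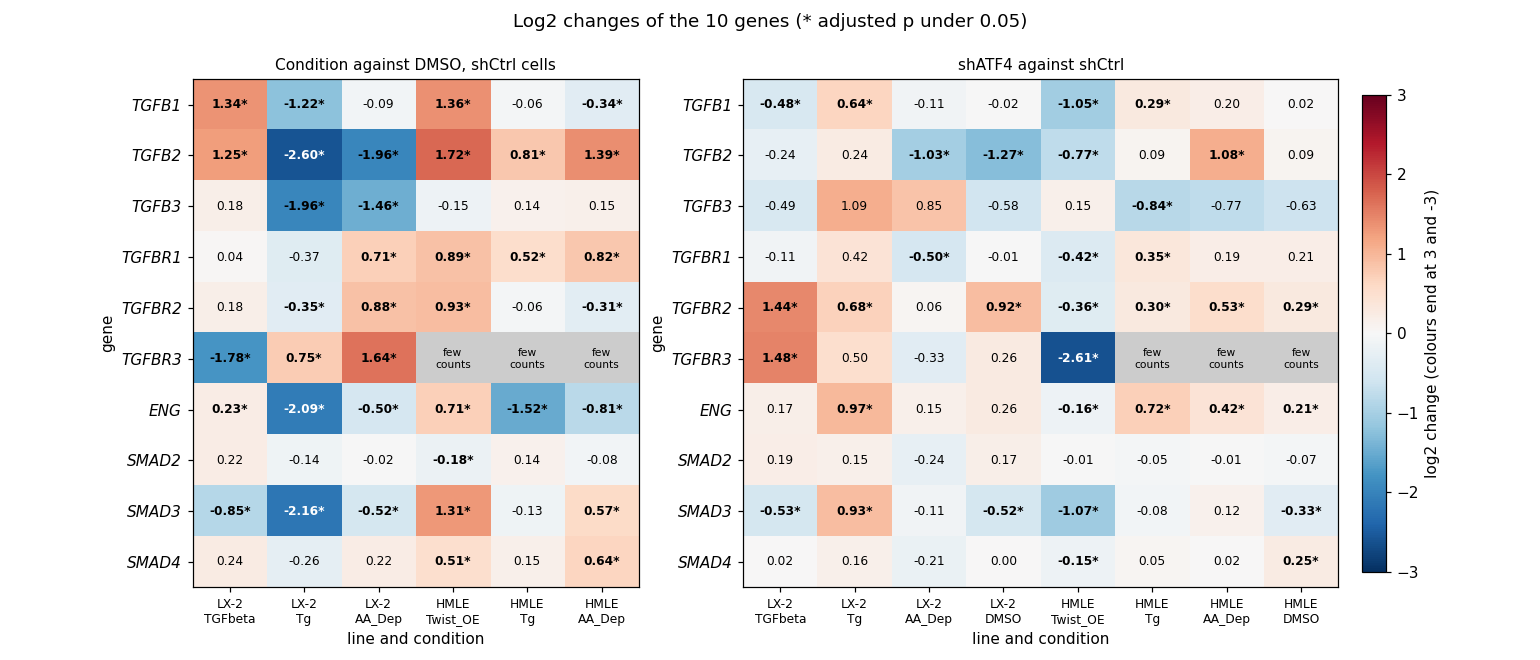
Log2 changes of the 10 genes (rows), with each condition against DMSO in shCtrl cells on the left and shATF4 against shCtrl within each condition on the right. Red is higher and blue lower in the group named first, a star marks an adjusted p under 0.05, and grey cells have a group with a mean of at most 3 counts. In HMLE Twist_OE, TGFB1 has a change of 1.36 against DMSO with shCtrl and of -1.05 with shATF4 against shCtrl.

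Counted over the 10 genes, TGFB2 passed the threshold in all 6 comparisons with DMSO and SMAD2 in 1. ENG also passed in all 6, but its LX-2 TGFbeta call was lost in the fits given above and with the DESeq2 Wald test (adjusted p = 0.053). In LX-2 shCtrl cells, TGFbeta raised 3 of the 10 and lowered 2, where 11.1% of the 18649 genes tested rose and 11.0% fell (22.1% in all), and the median log2 change was 0.20 against -0.00 over all genes. With all 16 LX-2 libraries edgeR called 1, TGFB1, against 3.15% of genes, and the DESeq2 Wald test called 4, TGFB1, TGFB2, TGFBR3 and SMAD3. The share of all genes was not worked out for DESeq2. In thapsigargin 1 of the 10 rose and 6 fell, where 20.2% of genes rose and 20.4% fell (40.5% in all), with a median of -0.80 against 0.01. All 16 libraries gave 6, all lower, against 34.4% of genes: TGFB1, TGFB2, TGFB3, TGFBR1, SMAD3 and ENG. In AA_Dep 3 rose and 4 fell, where 22.8% of genes rose and 22.7% fell (45.6% in all), with a median of -0.05 against 0.02. All 16 libraries gave 2 calls there, TGFB2 and TGFBR3, against 13.0% of genes.

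In HMLE shCtrl cells, 8 of the 10 rose and 1 fell in Twist_OE, where 28.3% of the 17940 genes tested rose and 28.9% fell (57.2% in all), with a median of 0.91 against 0.00. In thapsigargin 2 rose and 1 fell, where 18.6% of genes rose and 18.2% fell (36.8% in all), with a median of 0.14. In AA_Dep 5 rose and 3 fell, where 29.1% of genes rose and 32.6% fell (61.7% in all), with a median of 0.36. TGFB2 and TGFBR1 rose in all 3. TGFBR3, counted among the 8 in Twist_OE and the 5 in AA_Dep, passed the filter in HMLE only on its Twist_OE libraries.

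Between the hairpins in LX-2 DMSO cells, 1 of the 10 was higher and 2 were lower with shATF4, where 6.28% of genes were higher and 5.30% lower (11.6% in all). In LX-2 TGFbeta 2 were higher and 2 lower, where 10.9% of genes were higher and 10.7% lower (21.7% in all). In LX-2 thapsigargin 4 were higher and none lower, where 3.11% of genes were higher and 2.09% lower (5.20% in all). In LX-2 AA_Dep none was higher and 2 were lower, where 3.87% of genes were higher and 6.04% lower (9.91% in all). With all 16 LX-2 libraries edgeR called 0 of the 10 in each of these 4 comparisons, against 0.242%, 1.29%, 0.231% and 0.0900% of genes in the order given. At an unadjusted p under 0.05 it gave 1, 2, 7 and 2 of the 10, and the DESeq2 Wald test on the same 16 libraries called 0, 1, 4 and 0. The shares of all genes at an unadjusted p and by DESeq2 were not worked out. These counts are thus not read as results about the 10.

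In HMLE DMSO cells 3 of the 10 were higher and 1 lower with shATF4, where 6.08% of genes were higher and 6.72% lower (12.8% in all). In HMLE thapsigargin 4 were higher and 1 lower, where 12.3% of genes were higher and 11.9% lower (24.3% in all), and in HMLE AA_Dep 3 were higher and none lower, where 9.77% of genes were higher and 7.09% lower (16.9% in all). In HMLE Twist_OE none was higher and 8 were lower, where 23.3% of genes were higher and 23.9% lower (47.2% in all), with a median of -0.39 against -0.02 over all genes. The calls for SMAD4 (-0.15 ± 0.06, adjusted p = 0.0344) and ENG (-0.16 ± 0.06, adjusted p = 0.0432) among those 8 were small and were lost with the DESeq2 Wald test (adjusted p = 0.082 and 0.089). TGFBR3, also among the 8, passed the filter in HMLE only on these Twist_OE libraries.

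The Twist_OE response itself differed between the hairpins for 8 of the 10 genes. The shATF4 response minus the shCtrl response was below 0 for all 8, where 16.3% of genes had a called difference above 0 and 13.4% one below 0 (29.7% in all). The difference was -1.07 ± 0.08 for TGFB1 (adjusted p = 5.1e-09), -0.86 ± 0.13 for TGFB2 (adjusted p = 2.99e-05), -0.65 ± 0.07 for TGFBR2 (adjusted p = 3.7e-07) and -0.74 ± 0.08 for SMAD3 (adjusted p = 4.2e-07). TGFBR1, SMAD4 and ENG differed by -0.64 ± 0.12, -0.40 ± 0.08 and -0.37 ± 0.09, and TGFBR3, on the few counts given above, by -3.51 ± 1.29. The TGFBR3 call (adjusted p = 0.048) was lost in 6 fits that left out 1 library (adjusted p = 0.058 to 0.44). TWIST1 moved with these values: it was lower with shATF4 than with shCtrl in Twist_OE by -2.09 ± 0.11 (adjusted p = 4.1e-12). The marker lists moved too. The 8 epithelial markers summed to 7610 and 7289 normalised CPM in shATF4 Twist_OE cells and 1423 and 1367 in shCtrl Twist_OE cells, against 9111 and 9115 in shCtrl DMSO cells, and the 10 stellate and mesenchymal markers to 381 and 446 with shATF4 and 2839 and 2690 with shCtrl, against 38.7 and 43.5. The part of the TWIST1 level in the lower values of the 8 genes was not tested.

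In the other conditions the responses differed between the hairpins for fewer of the 10 genes, and for a smaller share of all genes, than in Twist_OE. In LX-2 TGFbeta it was 1 of the 10, higher with shATF4, where 0.563% of genes were higher and 0.424% lower (0.987% in all). In LX-2 thapsigargin 4 were higher, where 3.67% of genes were higher and 2.46% lower (6.13% in all), and in LX-2 AA_Dep 1 was higher and 2 were lower, where 3.91% were higher and 6.65% lower (10.6% in all). In HMLE thapsigargin 1 was higher, where 2.16% of genes were higher and 2.40% lower (4.56% in all), and in HMLE AA_Dep 2 were higher, where 2.99% were higher and 2.10% lower (5.09% in all). With all 16 LX-2 libraries edgeR called 0 of the 10 for the TGFbeta, thapsigargin and AA_Dep responses, against 0%, 0.270% and 0.0675% of genes, and 0, 4 and 0 had an unadjusted p under 0.05. The DESeq2 Wald test on these libraries called 0, 2 and 0, the 2 being TGFB2 and SMAD3. For DESeq2 and for the unadjusted p the share of all genes was not worked out. The 4 in LX-2 thapsigargin were TGFB1, TGFB2, SMAD3 and ENG, which were all lowered less with shATF4 than with shCtrl, TGFB2 by 1.51 ± 0.24 (adjusted p = 0.0012, and 0.219 with all 16). TGFB1 had 153 and 144 normalised CPM there with shATF4 and 96.4 with shCtrl, and its difference of 0.66 ± 0.15 (adjusted p = 0.0166, 0.671 with all 16, and 0.05 to 0.064 without 1 of 4 of the compared libraries) came to -0.02 with shCtrl replicate 2 in place of replicate 1. The 3 in LX-2 AA_Dep were TGFBR2, given above, SMAD3 (0.41 ± 0.10, adjusted p = 0.0212) and SMAD2 (-0.41 ± 0.12, adjusted p = 0.0471), both with an adjusted p of 1 with all 16, and the SMAD3 and SMAD2 calls were each lost in most fits that left out 1 library. In HMLE AA_Dep they were TGFB2 and SMAD3, whose level rose more with shATF4 (0.45 ± 0.09, adjusted p = 0.00336), both with the single shATF4 AA_Dep library. All conditions of a line and hairpin share their DMSO libraries.

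The lines were compared in shCtrl DMSO cells, where 7 of the 10 genes were higher and 1 was lower in LX-2 than in HMLE, while 35.9% of the 20308 genes tested were higher and 34.5% lower (70.4% in all). LX-2 had more TGFB1 (1.19 ± 0.09), TGFB2 (2.07 ± 0.13), TGFBR1 (1.85 ± 0.12), SMAD3 (2.39 ± 0.07), SMAD4 (0.94 ± 0.09) and ENG (1.83 ± 0.08), with adjusted p from 5.05e-21 to 2.36e-10, and less TGFBR2 (-1.43 ± 0.08, adjusted p = 6.55e-15). TGFBR3 had 131 and 95 counts in LX-2 against 1 and 1 in HMLE, 131 times as many per total count (35.8 to 1087). SMAD2 (0.16 ± 0.08) and TGFB3 (-0.57 ± 0.31) missed the threshold. With all libraries the same number, 8, was called, against 51.5% of genes. Each cell type is a single line here, and the labels give no dose or duration. In these levels and in the responses below, cell type cannot be told apart from line, culture, dose or library handling.

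Responses to thapsigargin and AA_Dep went apart between the lines for several members, most of all TGFB2. In shCtrl cells TGFB2 fell in LX-2 and rose in HMLE in both, and the responses differed by -3.42 ± 0.22 in thapsigargin (adjusted p = 4.3e-12) and by -3.37 ± 0.18 in AA_Dep (adjusted p = 7.65e-14). SMAD3 fell in LX-2 in both and rose in HMLE in AA_Dep, with differences of -2.05 ± 0.11 (adjusted p = 1.4e-13) and -1.11 ± 0.09 (adjusted p = 3.7e-10). TGFBR2 went the other way in AA_Dep, rising in LX-2 and falling in HMLE (1.16 ± 0.11, adjusted p = 3.7e-09, and 0.27 with all libraries). In all, 7 of the 10 thapsigargin responses differed, all lower in LX-2, where 12.8% of genes were higher and 14.9% lower (27.7% in all, and 21.6% with all libraries). Of the AA_Dep responses 2 were higher and 4 lower in LX-2, where 21.0% of genes were higher and 19.3% lower (40.3% in all, and 14.5% with all libraries). With all libraries 6 thapsigargin and 2 AA_Dep responses were called, TGFB2 and SMAD3 among them in both. The effect of shATF4 in DMSO differed between the lines for 2 of the 10, higher in LX-2 for TGFBR2 (0.59 ± 0.11, adjusted p = 0.00094) and lower for TGFB2, where 3.12% of genes were higher and 3.16% lower (6.28% in all, and 0.367% with all libraries). With all libraries edgeR called neither TGFBR2 nor TGFB2 for this difference.

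**Figure D3:**
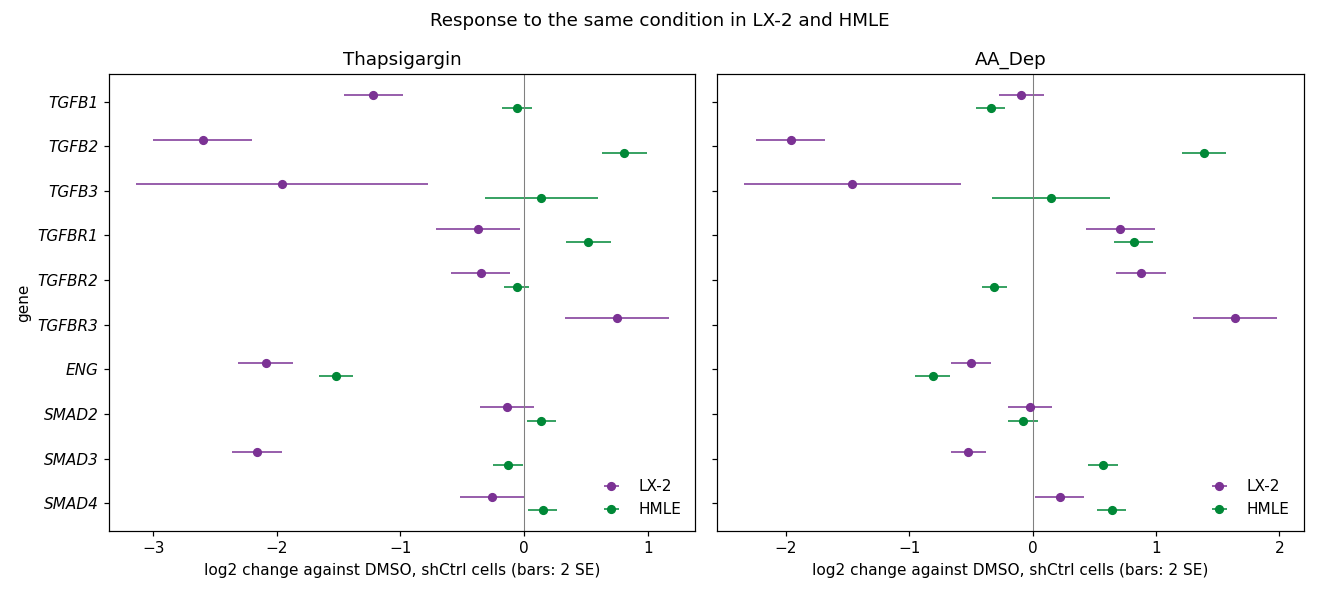
Log2 change against DMSO in shCtrl cells for thapsigargin (left) and AA_Dep (right), with LX-2 in purple above HMLE in green and bars of 2 SE. TGFBR3 in HMLE is left out for its few counts. TGFB2 lies at -2.60 in LX-2 and 0.81 in HMLE in thapsigargin, and at -1.96 and 1.39 in AA_Dep.

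The rest of the pathway was read from 4 lists, chosen with earlier results of these data known. Of 15 SMAD target genes, 15 rose in LX-2 shCtrl TGFbeta cells, with a median log2 change of 2.14 against -0.00 over all genes, of which 11.1% rose and 11.0% fell, and 14 were called with all 16 libraries. They include TGFBI, a matrix protein, at 8743 and 8862 normalised CPM against 1096 and 1181 in DMSO (2.98 ± 0.06, adjusted p = 1.5e-14), and SNAI1, a repressor of E-cadherin, at 37.2 and 35.5 against 3.53 and 4.64 (3.18 ± 0.23, adjusted p = 4.9e-08). NOX4, an oxidase of myofibroblasts, had 184 and 180 counts against 2 and 3 in DMSO. In thapsigargin none of the 15 rose and 10 fell, where 20.2% of all genes rose and 20.4% fell, and all 16 libraries gave the same numbers. In AA_Dep 4 rose and 7 fell, where 22.8% of all genes rose and 22.7% fell, and with all 16 libraries 7 fell and none rose. With shATF4 in TGFbeta, 2 were higher and 10 lower than with shCtrl, with a median of -0.87 against -0.01 over all genes, of which 10.9% were higher and 10.7% lower. All 16 libraries gave 3 lower. Among the 10 lower in the fit of 15 libraries, CDKN2B, an inhibitor of the cell cycle, had 16.1 and 15.9 CPM with shATF4 against 86.3 and 85.4 with shCtrl (-2.42 ± 0.12, adjusted p = 1.2e-09). JUNB had 59.9 and 70.5 against 174 and 179, and COL1A1 6127 and 6062 against 15386 and 15323 (-1.33 ± 0.06, adjusted p = 2.9e-10). In DMSO none of the 15 was higher and 7 were lower with shATF4, against 6.28% and 5.30% of all genes, and all 16 libraries gave 0 and 2. In AA_Dep the median of shATF4 against shCtrl was -0.30, against -0.01 over all genes. In thapsigargin, with a single shCtrl library, the median was 0.04, against 0.01. The TGFbeta response in shATF4 minus that in shCtrl was higher for 1 and lower for 2, with a median difference of 0.00, against 0.563% higher and 0.424% lower over all genes. With all 16 libraries edgeR called 0 of the 15, and 0% of all genes, for this difference.

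In HMLE, 13 of the 14 tested SMAD targets rose in shCtrl Twist_OE cells and none fell, with a median of 2.52, where 28.3% of all genes rose and 28.9% fell. With shATF4 in Twist_OE 1 was higher and 12 lower than with shCtrl, with a median of -1.78, where 23.3% of all genes were higher and 23.9% lower. COL1A1, a chain of collagen type I, had 153 and 170 normalised CPM with shATF4 and 1322 and 1240 with shCtrl in Twist_OE, against 12.6 and 14.1 in shCtrl DMSO cells. The member that was higher with shATF4 was IGFBP3, named after its values were seen, at 146 and 144 CPM against 48.5 and 45.1 (1.62 ± 0.07, adjusted p = 6e-13). In HMLE thapsigargin 6 of 14 rose and 2 fell, where 18.6% of all genes rose and 18.2% fell, and in AA_Dep 12 rose and 1 fell, where 29.1% rose and 32.6% fell. Between the hairpins, the median of shATF4 against shCtrl was above 0 in HMLE AA_Dep, with its single shATF4 library (0.34, against 0.03 over all genes). It was -0.18 in HMLE thapsigargin and -0.16 in HMLE DMSO, against 0.01 and -0.01.

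The inhibitors of the pathway moved with TGFbeta in both directions. Of 12 SMAD cofactors and feedback genes, 6 rose and 1 fell in LX-2 shCtrl TGFbeta cells, with a median of 0.26, where 11.1% of all genes rose and 11.0% fell, and all 16 libraries gave 3 and 1. PMEPA1, which holds receptor-bound SMADs back, had 334 and 325 normalised CPM against 9.42 and 9.02 in DMSO (5.18 ± 0.10, adjusted p = 1.5e-14), and SKIL, a SMAD co-repressor, 87.3 and 78.7 against 28.9 and 25.5. SMAD6, an inhibitory SMAD that acts above all on the BMP branch, was the 1 that fell, to 14.9 and 15.7 CPM against 41.1 and 38.8 (-1.36 ± 0.11, adjusted p = 1.4e-07). With shATF4 in TGFbeta 3 of these 12 were higher and 5 lower than with shCtrl, where 10.9% of all genes were higher and 10.7% lower, and all 16 libraries gave 2 lower and none higher. Among the 8 were PMEPA1 at 114 and 123 CPM against 334 and 325, and SMURF2, a ubiquitin ligase for the receptors, at 346 and 346 against 133 and 133. In LX-2 thapsigargin 2 rose and 6 fell, where 20.2% of all genes rose and 20.4% fell, and all 16 libraries gave 4 that fell and none that rose. In HMLE Twist_OE 9 rose and 2 fell, where 28.3% of all genes rose and 28.9% fell.

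Of 15 genes that hold the ligands latent or release them, 10 rose and none fell in LX-2 shCtrl TGFbeta cells, with a median of 0.90, where 11.1% of all genes rose and 11.0% fell, and 4 rose with all 16 libraries. LTBP2, a latent-complex matrix protein, had 80.4 and 83.0 normalised CPM against 14.8 and 11.8 in DMSO (2.64 ± 0.13, adjusted p = 5.2e-10). THBS1, an activator of latent TGF-beta, had 1243 and 1152 CPM against 359 and 338 (1.81 ± 0.14, adjusted p = 1.5e-07), and LRRC32, which anchors latent ligand on the cell, 5.69 and 5.78 against 0.785 and 1.39. In thapsigargin 1 rose and 10 fell, where 20.2% of all genes rose and 20.4% fell, and all 16 libraries gave 8 that fell and none that rose. ITGB6, a subunit of the integrin that frees latent ligand on epithelia, had 0 counts in the thapsigargin library of the fit, against 268 and 213 counts in DMSO. The library left out, where fewer genes were detected, had 0 as well. In HMLE Twist_OE 8 of 14 rose and 3 fell, where 28.3% of all genes rose and 28.9% fell, and FBN1, the fibrillin to which latent complexes bind, had 314 and 206 CPM against 1.13 and 0.784. Of the BMP and activin receptors and their SMADs, 12 were tested in LX-2, and 4 rose and 2 fell in TGFbeta, none of them with all 16 libraries. BMPR2, the type II BMP receptor, had 175 and 164 CPM against 94.1 and 66.3 (1.10 ± 0.18, adjusted p = 0.00037). ACVR1C, a type I receptor for activin and nodal, had 0 and 0 counts in TGFbeta against 11 and 8 in DMSO. ACVR2A, a type II activin receptor, had 5.86 and 5.62 CPM against 3.29 and 4.12 (0.66 ± 0.23, adjusted p = 0.047).

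For the 3 members with the widest range in LX-2, the genes of most similar pattern were found by Pearson's r over the 16 group means, centred within each line. For TGFB2 they were C2CD3 (r = 0.944), PIK3C3 (0.937) and NKILA (0.933), for TGFBR3 they were TBX2 (0.978), LACTB (0.970) and FMN2 (0.965), and for TGFB1 they were SEPTIN7 (0.953), LAMC1 (0.944) and ABL1 (0.933). These are descriptions over groups that share libraries of the same lines and hairpins, picked as the highest among all genes with at least 5 CPM in a group.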

How the data were processed

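Messenger RNA of 32 samples was sequenced as bulk libraries (RNeasy extraction and SMARTER library kit, per the labels' protocols). The authors deposited raw counts per gene and sample, with 58735 Ensembl genes, 58207 of which matched a symbol. The submitters' processing notes name cutadapt, Bowtie2, STAR, HOMER, featureCounts, DESeq, hg19 and hg38 without saying which served the RNA data. The strand setting of the counting is not given in the sources used here, so a gene and an overlapping antisense gene cannot be told apart. The 9 ChIP samples were not analysed here.

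The members, the gene lists, the left-out library and the tests were chosen with earlier results of these data known. The text names every member, up to 3 genes of each pathway list with the largest change, and the 3 genes most similar in pattern to each of 3 members. The lists' other named genes were chosen after their values were seen. One gene of the lists is not reported here.

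Counts were tested with edgeR 4.0.16 (R 4.3.3), by the quasi-likelihood test after filterByExpr and TMM scaling, with 1 term per group of line, hairpin and condition. There were 15 LX-2 libraries in one fit, 15 HMLE libraries in another and 30 for comparisons between the lines. Adjusted p is Benjamini-Hochberg over all genes tested, with a threshold of 0.05. Normalised CPM is CPM with TMM factors over the 31 libraries, and changes are log2 ± SE. The files give no gene lengths, so levels are compared between samples and not between genes. The tests were repeated with DESeq2 1.42.0 (its size factors, and its Wald test), with every gene that had a count, with the replicate number as a block, within only the compared groups, with all LX-2 libraries, without each library in turn, and, chosen after seeing the data, the other LX-2 shCtrl thapsigargin library. Same-numbered samples did not deviate together, with correlations of -0.28 to 0.22 over 21 pairs of LX-2 groups and -0.04 to 0.17 in HMLE, so the numbers were taken as names. Intervals of count ratios are exact (95%) and cover counting error only.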

Additional observations from a re-analysis of the deposited data

Results flagged for a closer look

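These results were picked out because a test of the difference between the lines themselves was past the threshold (edgeR quasi-likelihood test on 30 libraries). In shCtrl cells the thapsigargin response in LX-2 was lower than in HMLE for 7 of the 10 genes: TGFB1 by -1.18, TGFB2 by -3.42, TGFB3 by -2.11, TGFBR1 by -0.90, SMAD3 by -2.05, SMAD4 by -0.42 and ENG by -0.59 on the log2 scale. These values rest on 1 LX-2 shCtrl thapsigargin library, and with replicate 2 in its place the ENG difference was -0.06. With all libraries the ENG call was lost (adjusted p = 0.262). The SMAD4 call was lost without HMLE shCtrl DMSO replicate 2 (-0.41), HMLE shCtrl thapsigargin replicate 1 (-0.38) or LX-2 shCtrl DMSO replicate 1 (-0.38).

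The AA_Dep response differed for 6 genes, by -3.37 for TGFB2, -1.64 for TGFB3, 1.16 for TGFBR2, -1.11 for SMAD3, -0.44 for SMAD4 and 0.29 for ENG, of which TGFB2 and SMAD3 were called with all libraries. The ENG call was also lost with the DESeq2 Wald test (adjusted p = 0.082). In edgeR with only the compared groups, ENG (adjusted p = 0.13) and SMAD4 (0.073) lost theirs. The effect of shATF4 in DMSO differed between the lines for 2 genes, TGFB2 by -1.39 and TGFBR2 by 0.59, and edgeR called neither with all libraries.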

How the results depend on the processing

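The library LX-2 shCtrl thapsigargin replicate 2 decided more calls than any other choice tried. With it, LX-2 calls among the 10 genes came to 1 of 10 in TGFbeta against DMSO (5 without it), 2 in AA_Dep (7), and 0 between the hairpins in DMSO (3), TGFbeta (4), thapsigargin (4) and AA_Dep (2). All 3 differences of response between the hairpins also came to 0 (1 in TGFbeta, 4 in thapsigargin and 3 in AA_Dep without it). Between the lines, 2 AA_Dep responses (6) and 0 shATF4 effects (2) were called. These are edgeR counts. The counts at an unadjusted p and by DESeq2 were given with the hairpin comparisons and responses, without a share of all genes. For the shATF4 effects each gave 1, TGFB2, also without that share. With that library in place of replicate 1, 9 genes were called between the hairpins in thapsigargin and 8 for the difference of response, and 5 values turned: TGFBR3 against DMSO to -1.32, TGFB1 between the hairpins to -0.05, and the difference of response to -0.02 for TGFB1, 2.62 for TGFBR2 and 0.98 for SMAD2. The cause was not tested. With replicate 2 in place of replicate 1, the share of all genes called was not worked out. The counts of 9 and 8 are thus not read as results about the 10 genes.

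The LX-2 TGFbeta difference of response gave 3 calls with the DESeq2 Wald test, 4 without the count filter and 4 with only the compared groups. With only the compared groups, the hairpins differed for 7 genes in LX-2 TGFbeta and 0 in AA_Dep, and the AA_Dep response for 1. The share of all genes called was not worked out for any of these settings. Nor was it worked out for the replicate block or for the fits below that leave out 1 library. The replicate block gave 5 calls in place of 3 in HMLE thapsigargin against DMSO and ended the calls of ENG in LX-2 TGFbeta (adjusted p = 0.063), TGFBR2 in LX-2 thapsigargin (0.052) and SMAD2 in the LX-2 AA_Dep response (0.062). Over 240 values the block left 234 on their side of the threshold. Signs that turned where neither value was past the threshold were not counted as changes.

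Leaving out 1 library at a time gave 1 to 6 calls between the hairpins in LX-2 AA_Dep, 1 to 7 for the AA_Dep difference of response, 0 to 2 for TGFbeta, 2 to 3 between the hairpins in HMLE DMSO, 3 to 5 in HMLE thapsigargin and 1 to 2 for its difference of response. Of 1200 such values 1106 kept their side of the threshold, 70 lost a call, 24 gained one and 0 reversed.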
